A study of Mus musculus with 41 samples.

Results

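The secreted blood vessel regulators *Vegfa*, *Ang-1* and *Ang-2* were followed in the skin of mice that carried a nanofiber mesh with or without human stromal cells. They were chosen by name, as 3 of the 54 mouse target genes measured by quantitative PCR in 41 mice. *Vegfa* encodes vascular endothelial growth factor A, which drives endothelial cells to divide and to sprout from existing vessels. *Ang-1* (gene symbol *Angpt1*) encodes angiopoietin 1, the ligand that activates the endothelial receptor Tie2 and keeps vessels stable. *Ang-2* (*Angpt2*) encodes angiopoietin 2, which binds the same receptor and, depending on context, opposes angiopoietin 1. When vessels are remodelled, angiopoietin 2 is known to loosen them, and the outcome is known to depend on whether VEGF-A is present, so the 3 genes are commonly read together in wounds and around implants. In the mouse annotation *Vegfa* lies on chromosome 17, *Ang-1* on chromosome 15 and *Ang-2* on chromosome 8.

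All 41 animals were female NSG mice, an immunodeficient strain without T, B and natural killer cells, and the labelled tissue was skin. Animals in the P group carried P nanomesh, an electrospun degradable mesh made of a copolymer of lactic acid and caprolactone and placed under the abdominal skin. In the P+eMSC group, endometrial mesenchymal stem/stromal cells (eMSC) had been added onto that mesh. The eMSC were SUSD2+ cells from the endometrium of several women and carried mCherry. Sham mice were the labelled controls. Tissue was taken after 1 week (7 sham, 6 P and 7 P+eMSC mice) or 6 weeks (6 sham, 8 P and 7 P+eMSC mice). Ages are not given in the sources used here, and some of the animals had also served in an earlier study. The assays were mouse assays, and whether they also read transcripts of the human cells was not tested. In such tissue RNA, fewer cells of a type and less RNA per cell cannot be told apart. Each mouse gave 1 value per gene, and the p-values below reflect the spread between mice. In P+eMSC that spread also includes any spread between the women who gave the cells, whom the labels used here do not name.

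The level of a gene was its 18S Ct minus its own Ct. Ct, the threshold cycle, is the PCR cycle at which the signal crosses a set line. A level is thus on a log2 scale relative to 18S ribosomal RNA, and a level that is higher by 1 corresponds to a doubling if the PCR is fully efficient. Levels of different genes come from different assays and are not comparable with each other, so only differences between mice are read below. The 18S Ct lay between 6.20 and 7.79, with group medians from 6.60 to 6.94. *Vegfa* was detected in 41 mice, and *Ang-1* and *Ang-2* in 40 mice each. Mouse 52, a P mouse at 6 weeks, lacked a Ct for both angiopoietins and for 31 of the 54 genes in all, and had the highest 18S Ct of the 41 mice. Another 9 values were undetected in 4 other mice, none of them among these 3 genes. Among skin and stroma markers, *Cdh1* (epithelial cadherin) was detected in 40 mice and the fibrillar collagens *Col1a1* and *Col3a1* in 41.

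*Vegfa* at 1 week had a lower median in P and in P+eMSC than in sham, and the gap between P and sham did not hold after correction for the number of genes. The sham levels ran from -8.95 to -4.35 with a median of -7.61. In P they ran from -10.00 to -8.19 with a median of -8.69, and in P+eMSC from -10.42 to -5.59 with a median of -8.78. All 6 P mice lay below the sham median and 3 of them below every sham mouse, so the groups overlapped. The P minus sham shift was -1.13 (95% interval -2.95 to -0.11, exact Mann-Whitney p = 0.00816), a level 0.456 times that of sham, and its adjusted p over the 54 genes was 0.441. Here a shift is the Hodges-Lehmann shift, the median of all differences between a mouse of one group and a mouse of the other, with its exact interval. P+eMSC minus sham was -0.99 (-2.81 to 0.87, exact Mann-Whitney p = 0.259, adjusted p = 1), with 5 of 7 P+eMSC mice below the sham median. P+eMSC minus P was 0.38 (-0.88 to 2.61, exact Mann-Whitney p = 0.628, adjusted p = 0.981), and that interval spans both a lower and a much higher level with eMSC.

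Single animals set the ends of these ranges. Sham mouse 400 had a *Vegfa* level of -4.35, while the next sham mouse stood at -7.05. Without that mouse, P minus sham at 1 week was -1.004 (exact Mann-Whitney p = 0.0152, adjusted p = 0.818). P+eMSC mouse 2358 had the highest level of its group at -5.59, and mouse 78 the lowest at -10.42.

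*Vegfa* at 6 weeks had the widest gap between groups of the 3 genes. The sham levels ran from -8.21 to -5.33 with a median of -6.90. In P they ran from -16.94 to -7.00 with a median of -9.41, and in P+eMSC from -8.35 to -5.88 with a median of -6.94. All 8 P mice lay below the sham median and 5 of them below every sham mouse. The P minus sham shift was -2.54 (-4.35 to -0.80, exact Mann-Whitney p = 0.00799, adjusted p = 0.0551), a level 0.172 times that of sham. It was the lowest shift of the 54 genes against 18S, and it missed the adjusted threshold of 0.05. Mouse 52 counts in that ranking only for genes detected in it, and 31 of the 54 genes were not. With an exact permutation test of the mean difference, -3.09, the adjusted p was 0.0450, and with limma it was 0.0971. Both rest on a P mean that includes mouse 52 at -16.94, where the next P mouse stood at -10.61. Neither is given here without that mouse.

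Setting *Vegfa* in P+eMSC against P at 6 weeks gave a shift of 1.92 (0.53 to 3.99, exact Mann-Whitney p = 0.0205, adjusted p = 0.158), a level 3.78 times that of P. All 7 P+eMSC mice lay above the P median and 4 of them above every P mouse. Against sham, P+eMSC had a shift of -0.14 (-1.53 to 0.94, exact Mann-Whitney p = 0.731, adjusted p = 1), and 3 of its 7 mice lay above the sham median. These comparisons share the P mice and the sham mice, so they are not independent of each other.

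Mouse 52 had the lowest *Vegfa* level, -16.94, and the next P mouse stood at -10.61. Without mouse 52 the P minus sham shift at 6 weeks was -2.25 (exact Mann-Whitney p = 0.0140, adjusted p = 0.0944) and the P+eMSC minus P shift was 1.63 (exact Mann-Whitney p = 0.0379, adjusted p = 0.256). The label of mouse 2356 gives P and 6 weeks, while the authors had set its fold changes of the 3 genes against the 1-week sham mice. With mice 52, 400 and 2356 all left out, the shifts were -2.05 (exact Mann-Whitney p = 0.0260, adjusted p = 0.128) and 1.58 (exact Mann-Whitney p = 0.0734, adjusted p = 0.304). The titles carry animal numbers below 1000 or above 2000, and both series held mice of each group. Within the lower series P minus sham for *Vegfa* at 6 weeks was -2.67 (5 P and 4 sham mice), and within the higher one it was -2.54 (3 and 2 mice). P+eMSC minus P was 2.24 in the lower series (2 and 5 mice) and 1.52 in the higher series (5 and 3 mice). At 1 week the signs of *Vegfa* differed between the series, with P+eMSC minus P at -0.47 (4 and 2 mice) and 2.05 (3 and 4 mice) and P+eMSC minus sham at -1.61 (4 and 5 mice) and 0.64 (3 and 2 mice), while P minus sham was -1.21 (2 and 5 mice) and -0.95 (4 and 2 mice).

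**Figure D1:**
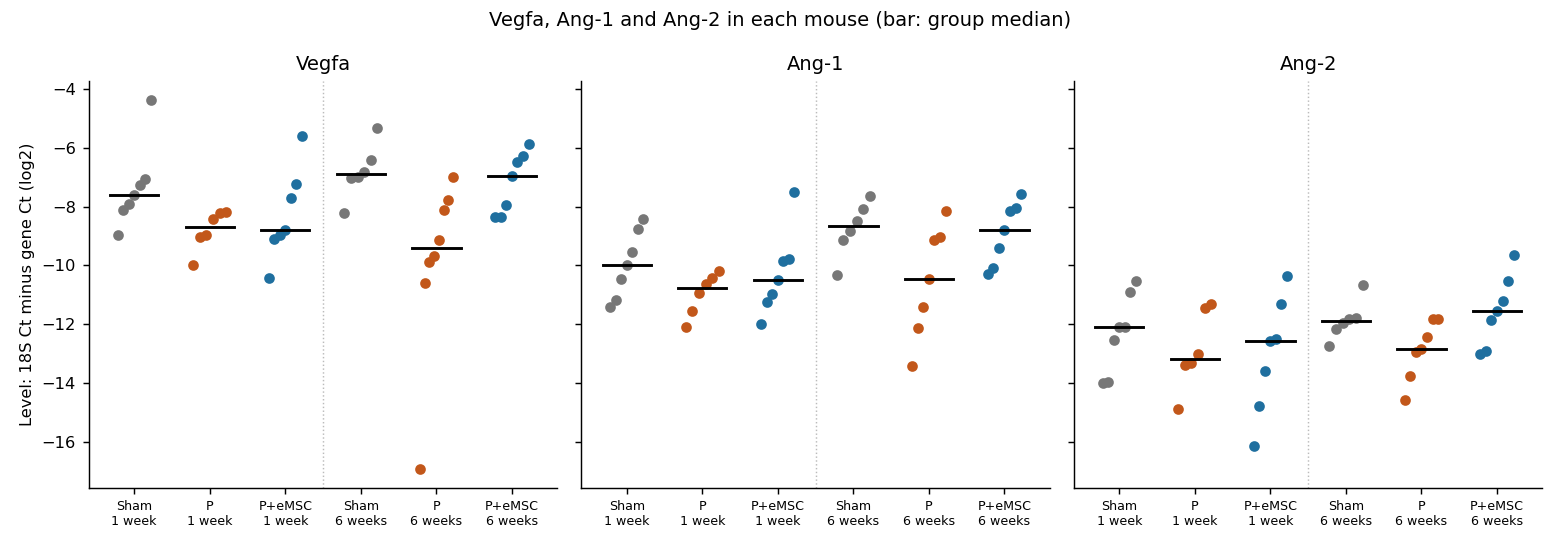
Levels of *Vegfa*, *Ang-1* and *Ang-2* (18S Ct minus gene Ct, log2 scale) in each mouse of the 6 groups; each point is 1 mouse, a bar is the group median, and colours mark sham, P and P+eMSC. At 6 weeks the *Vegfa* medians were -6.90 in sham, -9.41 in P and -6.94 in P+eMSC, and every group overlapped the others; mouse 52 has no point for *Ang-1* and *Ang-2* because neither was detected.

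*Ang-1* followed the same order of groups at 6 weeks, with smaller gaps. At that time sham ran from -10.34 to -7.63 with a median of -8.66, P from -13.44 to -8.15 with a median of -10.47 in 7 mice, and P+eMSC from -10.30 to -7.56 with a median of -8.79. In P, 6 of 7 mice lay below the sham median and 4 below every sham mouse. P minus sham was -1.58 (-4.06 to 0.09, exact Mann-Whitney p = 0.05128, adjusted p = 0.198). P+eMSC minus P was 1.48 (-0.38 to 3.87, exact Mann-Whitney p = 0.0973, adjusted p = 0.277), with all 7 P+eMSC mice above the P median. P+eMSC minus sham was -0.04 (-1.59 to 1.07, exact Mann-Whitney p = 1, adjusted p = 1). Within the number series, P minus sham for *Ang-1* was -0.94 in the lower one (4 and 4 mice) and -3.16 in the higher one (3 and 2 mice).

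At 1 week *Ang-1* ran from -11.42 to -8.41 in sham (median -9.99), from -12.10 to -10.18 in P (median -10.78) and from -11.99 to -7.50 in P+eMSC (median -10.50). All 6 P mice lay below the sham median, as they did for *Vegfa*, and the groups overlapped. The P minus sham shift was -0.94 (-2.21 to 0.48, exact Mann-Whitney p = 0.138, adjusted p = 0.791). P+eMSC minus sham was -0.51 (exact Mann-Whitney p = 0.620, adjusted p = 1) and P+eMSC minus P was 0.50 (exact Mann-Whitney p = 0.445, adjusted p = 0.981). In the lower and the higher number series these values of *Ang-1* were -1.12 and 1.12 against sham, and -0.60 and 2.01 against P.

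The Ct of *Ang-2* lay between 16.62 and 23.10, that of *Ang-1* between 14.21 and 20.31 and that of *Vegfa* between 11.79 and 24.73. At 6 weeks the *Ang-2* levels ran from -12.73 to -10.68 in sham (median -11.89), from -14.60 to -11.82 in 7 P mice (median -12.85) and from -13.01 to -9.65 in P+eMSC (median -11.56). P minus sham was -1.01 (-2.27 to 0.13, exact Mann-Whitney p = 0.0734, adjusted p = 0.248), with 4 of 7 P mice below every sham mouse. P+eMSC minus P was 1.29 (-0.06 to 2.79, exact Mann-Whitney p = 0.0973, adjusted p = 0.277), with 4 of 7 P+eMSC mice above every P mouse. P+eMSC minus sham was 0.28 (-1.10 to 1.64, exact Mann-Whitney p = 0.628, adjusted p = 1).

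One week after surgery the *Ang-2* levels of the groups lay across each other. Sham ran from -14.01 to -10.53 (median -12.11), P from -14.88 to -11.30 (median -13.17) and P+eMSC from -16.16 to -10.37 (median -12.58). P minus sham was -0.82 (-2.50 to 0.99, exact Mann-Whitney p = 0.534, adjusted p = 0.874) and P+eMSC minus P was 0.04 (-2.77 to 2.30, exact Mann-Whitney p = 1, adjusted p = 1). In the lower and the higher number series P+eMSC minus P was -0.84 and 0.73, and P+eMSC minus sham was -1.85 and 0.79. Leaving out 1 mouse at a time moved P+eMSC minus P over all mice between -0.42 and 0.49, so these mice give it no direction.

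Over the 9 comparisons, 0 of 27 member results passed an adjusted p below 0.05 by the exact Mann-Whitney U test, and 3 of 27, all of *Vegfa*, had an unadjusted p below 0.05. By limma the counts were 0 and 4 of 27. The background differed between comparisons. In P against sham at 6 weeks, 2 of the 54 genes (3.7%) were called lower after adjustment, the metalloproteinase inhibitors *Timp2* and *Timp3*, beside 0 of the 3 genes described here. At an unadjusted p below 0.05, 12 genes (22.2%) were lower and 0 higher in that comparison, beside 1 of the 3. In P+eMSC against P at 6 weeks, 0 genes (0%) passed after adjustment, and 10 (18.5%) were higher before it, beside 1 of the 3. In P against sham at 1 week, 0 genes (0%) passed, and 2 (3.7%), *Vegfa* and *Pdgfa*, were lower before adjustment. At both weeks P+eMSC against sham, and P+eMSC against P at 1 week, had 0 genes (0%) past an adjusted or an unadjusted p below 0.05 by the exact Mann-Whitney U test. By limma 0 of the 54 genes passed after adjustment in any of the 9 comparisons, and before it 13 passed in P against sham and 15 in P+eMSC against P at 6 weeks and 0 in the other 7.

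The low values of the 3 genes in P at 6 weeks stood among low values of most of the panel. Against 18S, the median shift of all 54 genes in P minus sham at 6 weeks was -0.83, with 43 genes below 0 and 11 above. In P+eMSC minus P the median was 1.15, with 47 genes above 0 and 7 below. *Ang-2*, with -1.01 and 1.29, lay close to both medians. *Ang-1*, with -1.58 and 1.48, lay further out, at the 46th and the 13th place from the highest shift. *Vegfa*, with -2.54 and 1.92, was at the 54th and the 7th place.

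**Figure D2:**
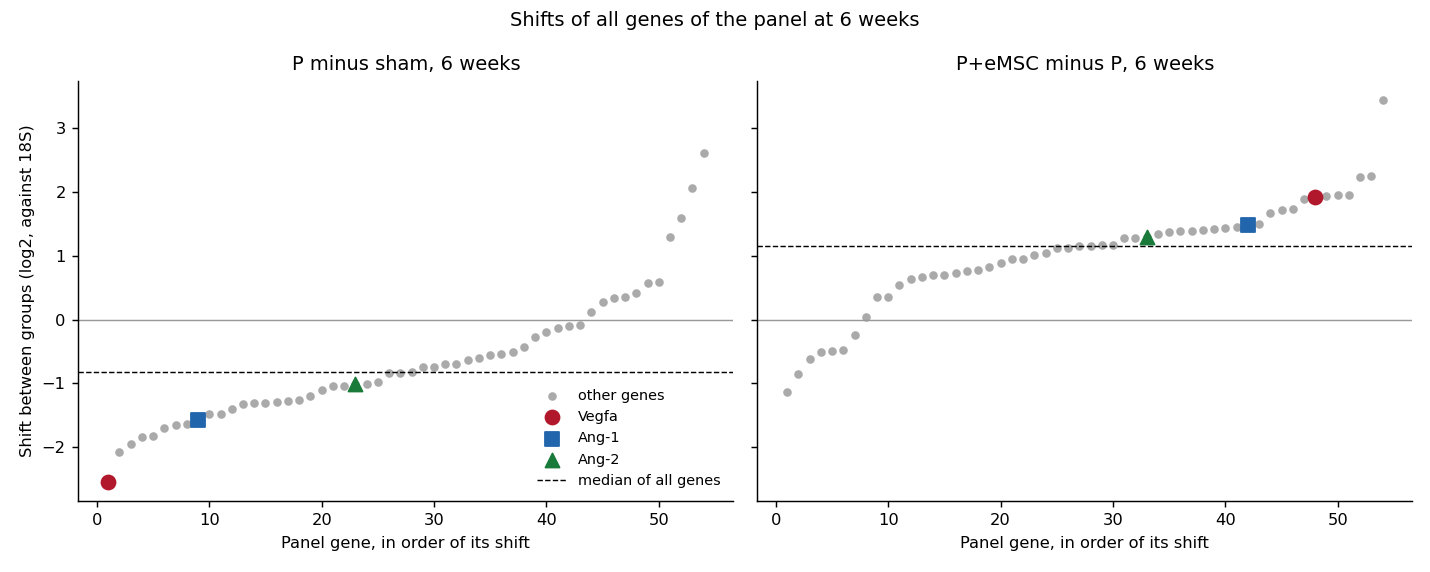
Shift of each of the 54 genes (log2, against 18S) in order of size, for P minus sham at 6 weeks on the left and P+eMSC minus P at 6 weeks on the right; large symbols are *Vegfa*, *Ang-1* and *Ang-2*, and the dashed line is the median of all genes (-0.83 and 1.15). *Vegfa* has the lowest shift of the panel on the left, and *Ang-2* lies near the median in both panels. Mouse 52 counts only for the genes detected in it, *Vegfa* among them.

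Relative to the panel itself the differences were smaller. The panel median of a mouse was the median level over the 23 genes detected in all 41 mice, *Vegfa* among them. In mice 126, 2355, 408, 438, 52 and 2400 *Vegfa* was itself the median gene, so its relative level there was 0 by construction. Group medians of the panel median at 6 weeks were -7.63 in sham, -8.48 in P and -7.03 in P+eMSC. With this median in place of 18S, *Vegfa* in P minus sham at 6 weeks was -0.90 (exact Mann-Whitney p = 0.0589, adjusted p = 0.351) and in P+eMSC minus P 0.47 (exact Mann-Whitney p = 0.279, adjusted p = 0.759). *Ang-1* was -0.58 (exact Mann-Whitney p = 0.534, adjusted p = 0.779) and 0.19 (exact Mann-Whitney p = 0.805, adjusted p = 0.974). *Ang-2* changed sign in both, to 0.14 and -0.04. At 1 week *Vegfa* in P minus sham was -1.04 against the panel median (exact Mann-Whitney p = 0.148, adjusted p = 0.443), close to its value against 18S.

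Which reference is the better one for these tissues was not tested. Against the panel median 2 of the 27 member results had an unadjusted p below 0.05, both of *Ang-2*. These were -0.40 in P+eMSC minus sham at 1 week and 0.50 in P+eMSC at 6 weeks minus 1 week. Each had an exact Mann-Whitney p of 0.0379, with adjusted p of 0.939 and 0.982. In both comparisons no other gene of the panel had an unadjusted p below 0.05 against the panel median.

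**Figure D3:**
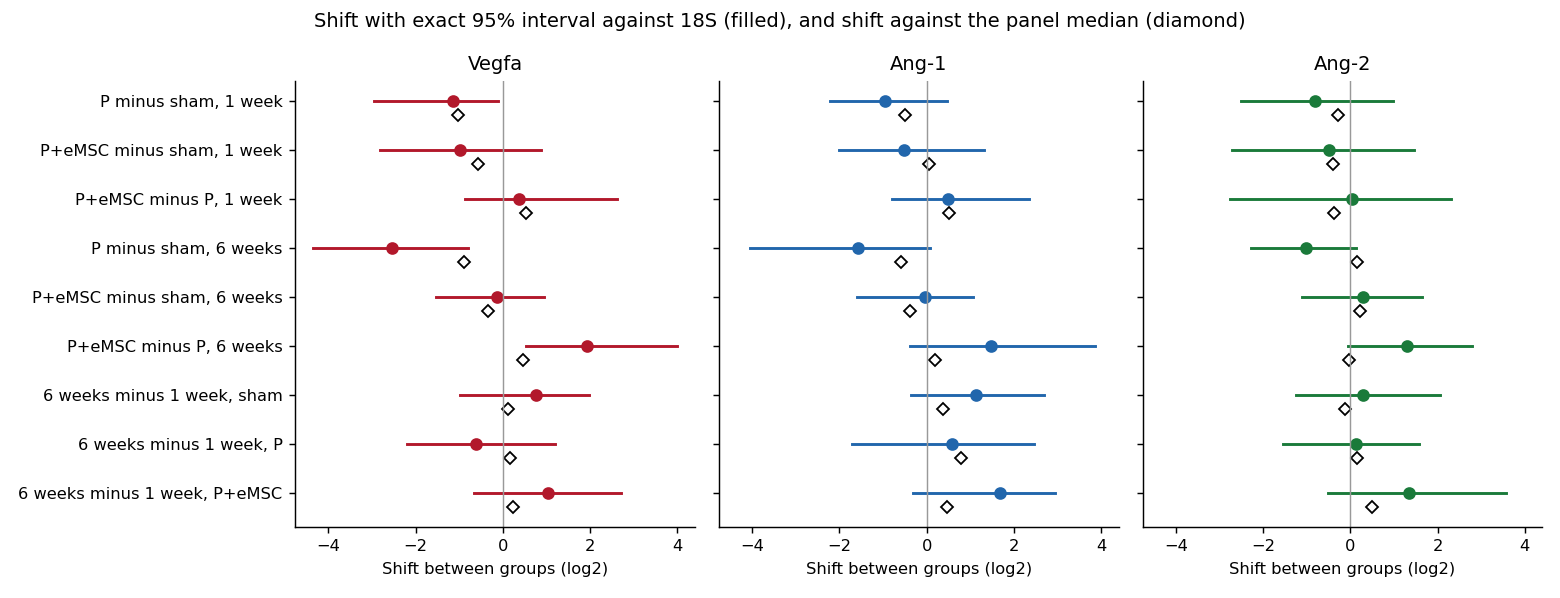
Shifts of *Vegfa*, *Ang-1* and *Ang-2* (log2) in the 9 comparisons; filled circles with lines are the shift against 18S and its exact 95% interval, and open diamonds are the shift against the panel median, without an interval. Against 18S the intervals of *Vegfa* in P minus sham at 1 week (-2.95 to -0.11) and 6 weeks (-4.35 to -0.80) and in P+eMSC minus P at 6 weeks (0.53 to 3.99) leave out 0, and the 6-week diamonds lie nearer to 0, at -0.90 and 0.47.

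Markers of the cells in the tissue also had shifts below 0 against 18S in P at 6 weeks, and their part in the values of the 3 genes was not tested. *Cdh1* had a P minus sham shift of -1.30 at 6 weeks, and the collagens *Col1a1* and *Col3a1* were both below 0, with a median shift of -0.92. Of 4 measured macrophage genes (*Mrc1*, *Arg1*, *Nos2* and *Ccr2*) 4 were below 0, with a median of -0.96. *Vcam1* and *Icam1*, adhesion molecules of activated endothelium, were below 0 with a median of -0.25. The mean level of the last pair ran from -12.40 to -9.46 in sham, from -13.15 to -10.42 in 7 P mice and from -13.01 to -9.51 in P+eMSC, so these ranges lay across each other. For the macrophage genes the mean level ran from -12.28 to -8.60 in sham, -14.08 to -8.67 in 7 P mice and -13.92 to -8.50 in P+eMSC. For the collagens it ran from -4.27 to -1.70 in sham and from -5.14 to -0.24 in P+eMSC. In P the collagens ran from -11.70 to -1.72, here over 8 mice with mouse 52 among them. In P+eMSC minus P at 6 weeks, these 9 marker genes were all above 0 against 18S. Against the panel median the signs turned: 8 of the 9 were above 0 in P minus sham, with *Mrc1* at -0.08, and 8 of the 9 were below 0 in P+eMSC minus P, with *Cdh1* at 0.42. The list medians in P minus sham were then 0.13 for *Cdh1*, 0.57 for the collagens, 0.81 for the adhesion molecules and 0.28 for the macrophage genes. None of the 9 passed an adjusted or an unadjusted p below 0.05 in either comparison by the exact Mann-Whitney U test.

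Other genes of the panel listed here as angiogenesis genes, measured in these same mice, were *Fgf1*, *Fgf2*, *Fgfr3*, *Pdgfa*, *Ctgf*, *Tgfb1*, *Tgfb3* and *Cxcl12*. The paper reports *Tgfb1* and *Tgfb3* with its matrix and adhesion genes. In P minus sham at 6 weeks 8 of these 8 lay below 0 with a median shift of -1.36, beside -0.83 for all genes. None passed the adjusted test, and 4 had an unadjusted p below 0.05, beside 12 of all 54 genes. The smallest p-values were those of *Pdgfa*, a platelet-derived growth factor that recruits mesenchymal cells (-1.48, exact Mann-Whitney p = 0.00466, adjusted p = 0.0551), and of *Tgfb3*, a transforming growth factor of wound repair (-2.07, exact Mann-Whitney p = 0.00799, adjusted p = 0.0551). In P+eMSC minus P at 6 weeks 8 of the 8 lay above 0 with a median of 1.33, beside 1.15 for all genes. Of the 8, 3 had an unadjusted p below 0.05, beside 10 of all 54 genes. *Tgfb3* stood at 2.24 there (exact Mann-Whitney p = 0.00932, adjusted p = 0.158) and *Pdgfa* at 1.17 (exact Mann-Whitney p = 0.0175, adjusted p = 0.158). Against the panel median the medians of the 8 genes were -0.11 and 0.17. At 1 week, P minus sham had 7 of the 8 below 0 with a median of -0.81, beside 28 of all 54 genes below 0 with a median of -0.10.

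Subtracting the level of *Ang-1* from that of *Ang-2* in each mouse removes 18S from the measure. The number itself depends on both assays, so only its change between mice is read. Over 40 mice it ran from -4.30 to 0.08 with a median of -2.75. Group medians lay close together, at -2.55 in sham, -2.78 in P and -2.73 in P+eMSC at 1 week, and at -3.09, -2.80 and -2.78 at 6 weeks. The spread did not: the SD was 0.41 in sham at 1 week (n = 7) and 0.53 in sham at 6 weeks (n = 6), and 1.40, 1.32, 1.30 and 1.16 in P and P+eMSC at 1 week and P and P+eMSC at 6 weeks (n = 6, 7, 7 and 7). No test of these SDs was made.

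A few implanted mice stood apart from the sham range on the upper side. At 1 week sham ran from -2.84 to -1.63, while P mice 2308 and 2396 had differences of 0.08 and -0.36 and P+eMSC mouse 10 had -0.33. The other 4 P mice lay between -2.90 and -2.78. At 6 weeks sham ran from -3.71 to -2.39, and P mice 2307, 2356 and 53 had -0.83, -1.01 and -1.16. Those 3 P mice were followed by one at -2.80 and 3 between -3.70 and -3.30. P+eMSC mice 2317 and 2351 had -0.93 and -1.49. Among these upper mice, P+eMSC mouse 10 and P mouse 53 carried numbers below 1000, and the others numbers above 2000. The higher number series held 2 sham mice in each week, and its part in these values was not tested. On the lower side, P+eMSC mice 532 and 78 at 1 week had -4.30 and -4.17, and mouse 2399 at 6 weeks had -4.30, each below every sham mouse of its week.

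In mouse 2308 the *Ang-1* level was -11.54, below each sham mouse of 1 week, and the *Ang-2* level was -11.45, inside the sham range. Mouse 2307 had an *Ang-1* level of -12.12 and an *Ang-2* level of -12.96, both below every sham mouse of 6 weeks. In P+eMSC mouse 2351 the *Ang-2* level of -9.65 was the highest of the 40, with *Ang-1* at -8.16, inside the sham range. A difference near the top of the range thus went with a low *Ang-1* in some mice and with a high *Ang-2* in another. It did so in other mice without either: in mice 2396, 10 and 2317 both levels lay inside the sham range of their week. In mouse 53 both lay below that range, as in mouse 2307.

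**Figure D4:**
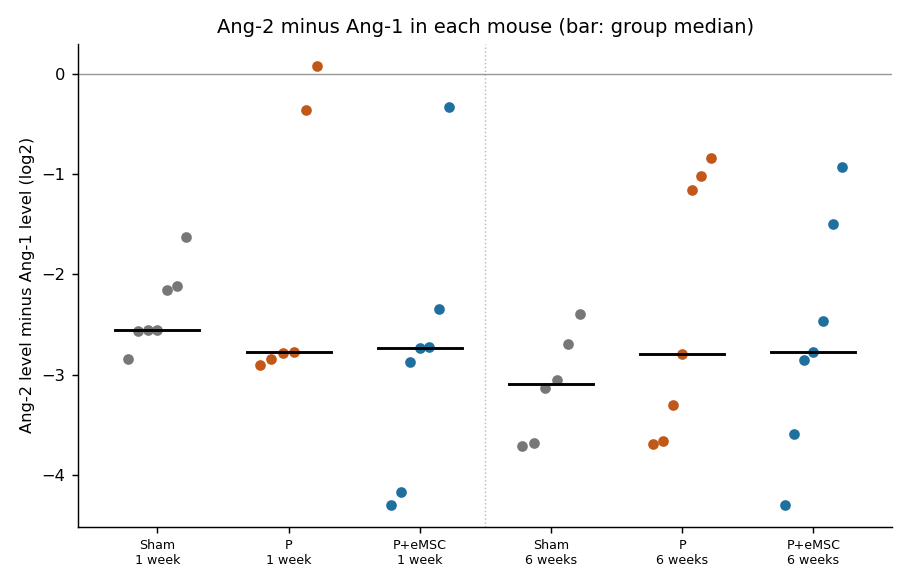
*Ang-2* level minus *Ang-1* level (log2) in each of 40 mice by group; points are mice and bars are group medians. The medians lie between -3.09 and -2.55, the sham mice between -3.71 and -1.63, and single P and P+eMSC mice reach up to 0.08 or down to -4.30.

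No comparison of this difference between treatments had an unadjusted p below 0.05. P minus sham was -0.23 at 1 week (-0.73 to 2.21, exact Mann-Whitney p = 0.628) and 0.39 at 6 weeks (-0.61 to 2.30, exact Mann-Whitney p = 0.445). The 6-week value was 0.15 without P mouse 2356 and 1.07 without P mouse 438. P+eMSC minus P was -0.26 at 1 week (-2.81 to 0.44, exact Mann-Whitney p = 0.731) and -0.09 at 6 weeks (-1.84 to 1.23, exact Mann-Whitney p = 0.902). P+eMSC minus sham was -0.33 at 1 week (-1.73 to 0.23, exact Mann-Whitney p = 0.165) and 0.32 at 6 weeks (-0.62 to 1.77, exact Mann-Whitney p = 0.445). Within the number series at 6 weeks P minus sham had opposite signs, -0.59 in the lower one (4 and 4 mice) and 2.68 in the higher one (3 and 2 mice), and P+eMSC minus P did too, 0.83 (2 and 4 mice) and -0.80 (5 and 3 mice). In the sham mice it was -0.80 between 6 weeks and 1 week (-1.50 to -0.15, exact Mann-Whitney p = 0.0221, adjusted p = 0.199 over the 9 comparisons), with 5 of 6 mice at 6 weeks below the 1-week median and 4 below every mouse of 1 week. Within the number series that value was -0.52 (4 and 5 mice) and -1.22 (2 and 2 mice). Without sham mouse 123 of 6 weeks it was -0.94 with an adjusted p of 0.0455, and without sham mouse 2277 of 6 weeks it was -0.58. With 1 mouse left out at a time, the exact Mann-Whitney adjusted p reached up to 0.432, and 1 of 13 settings passed.

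Between 1 and 6 weeks the levels against 18S differed by less than the spread between mice allows to call. In sham, 6 weeks minus 1 week was 0.77 for *Vegfa* (exact Mann-Whitney p = 0.181), 1.14 for *Ang-1* (exact Mann-Whitney p = 0.101) and 0.30 for *Ang-2* (exact Mann-Whitney p = 0.534), beside a median of 0.51 over all genes. In P+eMSC the values were 1.04 (exact Mann-Whitney p = 0.165), 1.69 (exact Mann-Whitney p = 0.0973) and 1.35 (exact Mann-Whitney p = 0.209), beside 0.88, and all 7 mice at 6 weeks lay above the 1-week median for *Vegfa* and for *Ang-1*. In the lower number series (2 and 4 mice) the P+eMSC values were 2.49, 2.18 and 2.47, and in the higher one (5 and 3 mice) they were -0.64, 0.35 and 0.72, so that of *Vegfa* turned its sign. In P they were -0.62, 0.57 and 0.13, beside -0.50, and without mouse 52 *Vegfa* stood at -0.01. Adjusted p-values were 0.824 or more for all 9. The exact Mann-Whitney U test called 0 of the 54 genes (0%) after adjustment in each of these comparisons, and before it 2 genes (3.7%) were higher in sham and 0 differed in P or P+eMSC.

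Whether a difference between treatments changed from 1 to 6 weeks was tested in limma over all 41 mice. For P+eMSC minus P the change was 2.17 ± 1.35 (SE) for *Vegfa* (limma adjusted p = 0.485), 0.93 ± 1.09 for *Ang-1* (adjusted p = 0.550) and 1.51 ± 1.13 for *Ang-2* (adjusted p = 0.485). For P minus sham it was -1.61 ± 1.38 for *Vegfa* (limma adjusted p = 0.736). Without mouse 52 these *Vegfa* changes were 1.17 (limma adjusted p = 0.581) and -0.60 (limma adjusted p = 0.922), and against the panel median they were -0.04 and 0.24. An effect of eMSC that differs between the weeks was therefore not shown for any of the 3 genes.

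In order of their median levels, the *Vegfa* groups ran from P at 6 weeks over P+eMSC at 1 week, P at 1 week, sham at 1 week and P+eMSC at 6 weeks to sham at 6 weeks. For *Ang-1* it ran from P at 1 week over P+eMSC at 1 week, P at 6 weeks, sham at 1 week and P+eMSC at 6 weeks to sham at 6 weeks. For *Ang-2* it began with P at 1 week and P at 6 weeks, went on with P+eMSC at 1 week and sham at 1 and 6 weeks, and ended with P+eMSC at 6 weeks. Neighbours in each order were 1.20 apart or less in median, and every neighbouring pair overlapped.

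Across mice *Vegfa* and *Ang-1* ran closely together. Over 40 mice from all groups, which share the 18S reference and the amount of template, the Spearman rho of their levels was 0.882 and Pearson's r was 0.827. Without mice 400 and 401, whose *Vegfa* levels lay farthest from the median, rho was 0.938 and r was 0.934. Within groups rho ran from 0.57 in sham at 1 week to 0.96 in P+eMSC at 1 week and in P at 6 weeks. Against the panel median rho was 0.772 over all 40 mice. Within groups it then ran from 0.11 in sham at 1 week to 1 in sham at 6 weeks. *Vegfa* minus *Ang-1* lay between 0.80 and 3.06 in 39 mice, and it was 6.11 in sham mouse 400, whose *Ang-1* level of -10.46 was inside the sham range.

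*Ang-2* went less closely with either. Its rho was 0.697 with *Vegfa* and 0.674 with *Ang-1* against 18S, and 0.238 and 0.325 against the panel median. Within groups the rho of *Ang-1* and *Ang-2* against 18S ran from 0.14 in P at 1 week to 0.86 in sham at 1 week. Against the panel median it ran from -0.64 in P+eMSC at 1 week to 0.83 in sham at 6 weeks. These are descriptions over mice that differ in treatment, with no test.

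**Figure D5:**
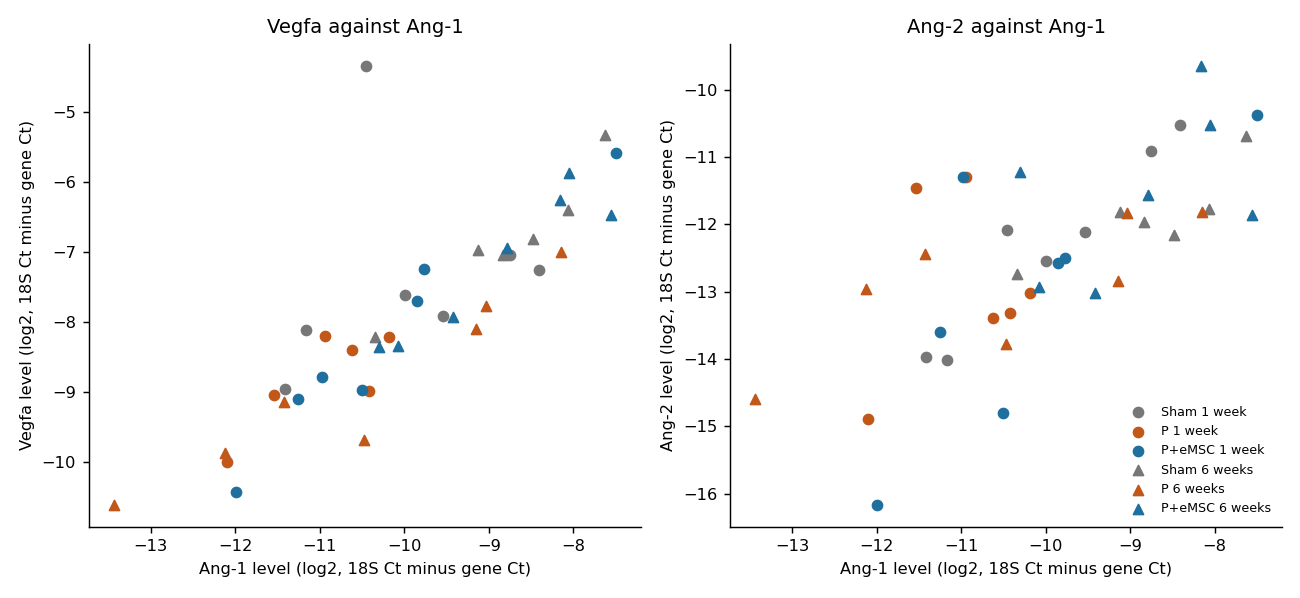
*Vegfa* level (left) and *Ang-2* level (right) against the *Ang-1* level of the same mouse (log2, 18S Ct minus gene Ct) in 40 mice; circles are 1 week, triangles 6 weeks, and colours mark sham, P and P+eMSC. *Vegfa* follows *Ang-1* (rho 0.882) except in sham mouse 400 at a *Vegfa* level of -4.35, and *Ang-2* is more widely spread about *Ang-1* (rho 0.674).

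Among the 53 other genes ranked for each of the 3, those with the highest Spearman rho to *Vegfa* were *Tgfb3* (0.933, 41 mice), the fibroblast growth factor gene *Fgf1* (0.924, 40 mice) and *Ang-1*. For *Ang-1* they were *Fgf2*, another fibroblast growth factor gene (0.890, 40 mice), *Fgf1* (0.888, 40 mice) and *Vegfa*. For *Ang-2* they were *Cdh2*, the gene of N-cadherin (0.884, 40 mice), the chemokine gene *Cxcl12* (0.878, 40 mice) and *Nos2*, which encodes inducible nitric oxide synthase (0.847, 39 mice). Against the panel median, *Vegfa* was closest to *Fgf1* (0.866), *Tgfb3* (0.840) and *Ang-1*, and *Ang-1* to *Fgf1* (0.792), *Fgf2* (0.790) and *Vegfa*. *Ang-2* then had no close companion: the highest were *Nos2* (0.435, 39 mice), *Ang-1* (0.325) and the integrin gene *Itgb1* (0.303).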

How the data were processed

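The authors extracted total RNA from skin, made cDNA, preamplified it with pooled TaqMan assays and ran Fluidigm dynamic arrays, whose software gave the Ct values. They deposited Ct values (threshold cycles, not normalized, in which 999 or an empty cell marks an undetected gene) and, per the paper's methods, fold change ratios made by the authors relative to 18S and to sham. A Ct has no read depth, so the number of mice limits the precision, and undetected values were left out. Preamplification and differences in assay efficiency can alter a Ct, and 1 value per gene and mouse gives no technical error. Rows were matched to the RefSeq annotation of the mouse (*Ang-1* to *Angpt1*, *Ang-2* to *Angpt2*), each to 1 gene.

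Groups came from the deposited labels, which name no eMSC donor, and no mouse was paired with another. The 18S Ct minus the gene Ct of each of 54 genes was compared by a two-sided Mann-Whitney U test with exact p-values, with Benjamini-Hochberg adjustment over them and a call at an adjusted p below 0.05. The test needed at least 4 values per group. The *Ang-2* minus *Ang-1* difference was adjusted over the 9 comparisons. Changes between weeks were fitted in limma with the 6 groups in one model. The genes named were the 3 regulators, for each the 3 genes with the highest Spearman rho among those detected in at least 35 mice, and the 2 other angiogenesis genes with the smallest p where none was called. Genes and lists were chosen with earlier results of these data known. *Cd86* and *Cd80*, also listed as macrophage markers, were not analysed here, and 1 gene of the angiogenesis list is not reported here. Tests were checked on simulated data. The deposited fold change ratios of the 3 genes lay within 0.01 (log2) of those calculated from Ct except for mouse 2356 and for *Vegfa* in the 6-week sham mice, which differed by the offset between the 1-week and the 6-week sham means. Those sham values of *Vegfa* were 0.53 higher, and mouse 2356 was higher by 0.53 for *Vegfa*, 1.22 for *Ang-1* and 0.45 for *Ang-2*.

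Alternatives were the panel median in place of 18S, undetected values set 0.01 below the lowest level, exact permutation of the mean, limma, permutation within the animal number series, the deposited fold changes, the unadjusted threshold of the study's methods, the number series as a covariate, and leaving out each mouse. Leaving out mice 52, 400 and 2356 together was added after the data had been seen. All limma fits were made with limma 3.58.1 under R 4.3.3. The exact tests and summaries were computed in Python 3.11.15, using pandas 2.3.3 for the tables, numpy 2.4.6 and scipy 1.17.1 for the tests, and matplotlib 3.10.9 for the figures.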

Additional observations from a re-analysis of the deposited data

Results flagged for a closer look

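In 24 groups of 6 to 8 mice, over the 3 genes and the *Ang-2* minus *Ang-1* difference, 2 single mice lay further from the rest of their group than the 95% limit of Dixon's test, which chance exceeds in about 1 group in 20. Sham mouse 400 at 1 week had a *Vegfa* level of -4.35 (log2, relative to 18S), and the nearest sham mouse stood at -7.05. P mouse 52 at 6 weeks had a *Vegfa* level of -16.94, and the nearest P mouse stood at -10.61. Mouse 52 lacked a Ct for 31 of the 54 genes, mouse 400 for 0. The part of either mouse's RNA in these values was not tested.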

How the results depend on the processing

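The deposited fold changes derive from the same Ct values, so that setting could hardly give another result. With them, the direction and the side of the threshold stayed as reported for 18 of 18 results. Both also stayed for 12 of 12 changes between weeks with the number series as a covariate. They also stayed for 24 of 36 results against the panel median, 26 of 27 with undetected values set below the lowest level, 33 of 36 by permutation of the mean, 35 of 36 within the number series, 26 of 27 by limma, 21 of 24 without mice 52, 400 and 2356, and 939 of 984 with 1 mouse left out. *Vegfa* in P minus sham at 6 weeks passed the adjusted threshold by permutation of the mean (-3.09, exact permutation p = 0.00666, adjusted p = 0.0450), and 3 results passed it with 1 mouse left out, given below. The P mean in that permutation includes mouse 52, whose *Vegfa* level was -16.94. The other changes under these alternatives were of sign.

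Against the panel median, the sign changed for *Ang-1* in P+eMSC minus sham at 1 week (0.044), for *Ang-2* in P+eMSC minus P at 1 week (-0.37) and 6 weeks (-0.040), in P minus sham at 6 weeks (0.14) and in sham between the weeks (-0.12), and for *Vegfa* in P between the weeks (0.17). Among changes between weeks it did so for P minus sham (*Vegfa* 0.24, *Ang-1* 0.025, *Ang-2* 0.37), P+eMSC minus sham (*Ang-1* -0.22) and P+eMSC minus P (*Vegfa* -0.040, *Ang-1* -0.25). *Ang-2* in P between the weeks was -0.38 with undetected values set low and -0.15 without mice 52, 400 and 2356. Without those mice *Vegfa* in P between the weeks was 0.12, and *Ang-2* minus *Ang-1* in P+eMSC minus P at 6 weeks was 0.046. *Ang-2* in P+eMSC minus P at 1 week was -0.15 by the mean difference and by limma, and *Ang-2* minus *Ang-1* in P minus sham at 1 week was 0.41 by the mean and 0.20 within the number series. The cause was not tested.

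At the unadjusted threshold of the study's methods, *Vegfa* passed in P minus sham at 1 week (-1.13) and 6 weeks (-2.54). It also passed in P+eMSC minus P at 6 weeks (1.92). *Ang-1* passed in P minus sham at 6 weeks (-1.58), and *Ang-2* minus *Ang-1* in sham between the weeks (-0.80). That threshold lies slightly above 0.05, and the paper names its test for P against P+eMSC only. *Ang-1* passed only because of this, with an exact Mann-Whitney p of 0.05128. *Cdh2* at 6 weeks and *Tgfb3* at 1 week had the same p in P minus sham. Below 0.05 were 2 of the 54 genes in P minus sham at 1 week, 12 at 6 weeks, and 10 in P+eMSC minus P at 6 weeks.

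With 1 mouse left out at a time, *Vegfa* in P minus sham at 6 weeks ran from -2.76 to -2.25, with an adjusted p of 0.0420 without sham mouse 123 and 0.0315 without P mouse 437. These were the only 2 of 14 settings that passed, and the exact Mann-Whitney adjusted p reached up to 0.126. *Ang-2* minus *Ang-1* in sham between the weeks ran from -0.94 to -0.58, with an adjusted p of 0.0455 without sham mouse 123. That was the only 1 of 13 settings that passed, and the exact Mann-Whitney adjusted p reached up to 0.432. The sign changed in these ranges: *Vegfa* in P+eMSC minus sham at 6 weeks -0.89 to 0.029, *Ang-1* in the same -0.43 to 0.058 and in its change between weeks -0.18 to 0.60, and *Ang-2* in P+eMSC minus P at 1 week -0.42 to 0.49 and in P between the weeks -0.38 to 0.44. For *Ang-2* minus *Ang-1* they were -1.36 to 0.027 in P+eMSC minus P at 1 week, -0.54 to 0.080 at 6 weeks and -0.083 to 0.34 in P+eMSC between the weeks.

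*Gapdh* as the reference was not run, since no *Gapdh* values were analysed here. Mice were not paired, since each had its own number and received a single treatment. Pairing by eMSC donor was not possible, since the labels used here name no donor. With 6 to 8 mice a group, the intervals of the shifts span several log2 units.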
